A study of Mus musculus with 25 samples.

Results

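Genes for making serine, one-carbon units and asparagine, and for carrying large neutral amino acids, were followed across the mouse duodenum after 8 weeks of control or ethanol diet. They are Phgdh, Psat1, Shmt2, Mthfd2, Asns, Slc7a5 and Slc3a2, taken by symbol from the deposited count table, which gave 7 genes of 17007. The genes were chosen by function, as targets of ATF4, but with measured fold changes of these libraries known, and no single comparison chose them, so the values and adjusted p-values below describe the 7 genes, and their counts give no independent support to the choice of genes.

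Polyadenylated RNA of whole duodenum, the first part of the small intestine, was sequenced in 25 libraries of male mice that were 8 weeks old at the start. KI_Half (6 libraries) were Aldh2KI mice on 2.5% ethanol diet with gavages of 2 g/kg ethanol 2 times a week, and KI_Con (4 libraries) were Aldh2KI mice on control diet. WT_Con (4 libraries), WT_Half (7) and WT_Full (4) were C57BL/6N mice, here called wild type, on control diet, on the 2.5% ethanol regimen, and on 5% ethanol with gavages of 4 g/kg. Tissue of ethanol-fed mice was taken 9 h after the final gavage, which is stated as 5 g/kg, and the labels do not say whether mice on the 2 g/kg regimen also received that dose. All mice of the KI groups carried the Aldh2 knock-in, whose allele the labels do not name, and Aldh2 encodes the mitochondrial enzyme that oxidises the acetaldehyde made from ethanol. Nor do the labels say whether control mice were gavaged, so gavage, time since the last meal and ethanol cannot be told apart. The labels do not say that each library is a separate mouse, so p-values measure the spread between libraries.

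Library totals ran from 24.6 to 44.85 M counts (M, mega), and all 12 enterocyte markers were found in every library, with a summed level of 18987 to 53732 CPM (counts per M counts of a library, after normalisation over all libraries). In bulk tissue, more cells of a type and more RNA per cell cannot be told apart. Of 16 pancreatic acinar markers 14 were measured, and their summed level was 18.1 to 32.4 CPM in KI_Half and 25.9 to 6036 in KI_Con, and 14.7 to 2986 in WT_Con, 16.3 to 69.4 in WT_Half and 16.5 to 24.9 in WT_Full. Cpa1 and Cela3b were at 0 in 1 WT_Full library and Try5 in 1 WT_Half library. Of 6 markers of Brunner glands, the mucous glands of the duodenal wall, 5 were measured, with a summed level of 37.3 to 7335 CPM in KI_Half, 56.7 to 11124 in KI_Con, 37.8 to 54888 in WT_Con, 49.2 to 17260 in WT_Half and 17.98 to 7302 in WT_Full. Summed markers of T and NK cells, all 12 measured, were 32.4 to 163 CPM in KI_Half and 230 to 294 in KI_Con, and 111 to 296 in WT_Con, 14.2 to 171 in WT_Half and 14.96 to 55.9 in WT_Full. All 12 had a negative log2 fold change in both wild-type ethanol groups over WT_Con, and their part in the results below was not tested. The 12 markers of proliferating crypt cells summed to 607 to 778 CPM in KI_Half and 380 to 539 in KI_Con, and to 439 to 652 in WT_Con, 456 to 1645 in WT_Half and 514 to 1198 in WT_Full.

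As background, serine is built from a glycolytic intermediate in a short chain of steps begun by PHGDH, and mitochondria then pass a carbon of serine to folate through SHMT2 and MTHFD2. ASNS makes asparagine from aspartate and glutamine, and SLC7A5 and SLC3A2 pair as light and heavy chain of a plasma membrane exchanger for leucine and other large neutral amino acids. All of these genes are known targets of ATF4, the transcription factor of the integrated stress response, which is translated when amino acids run short or mitochondria are disturbed.

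In the Aldh2KI duodenum, 6 of the 7 genes were higher in KI_Half than in KI_Con, by 3.45 to 8.88 times, and Slc3a2 was the exception. In wild type, Phgdh, Psat1 and Shmt2 were higher in WT_Half than in WT_Con, by 2.42 to 5.27 times, with values of like size in WT_Full. Mthfd2, Asns and Slc7a5 overlapped between ethanol-fed and control wild-type libraries, 1 WT_Con library having high values of all 3.

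**Figure D1:**
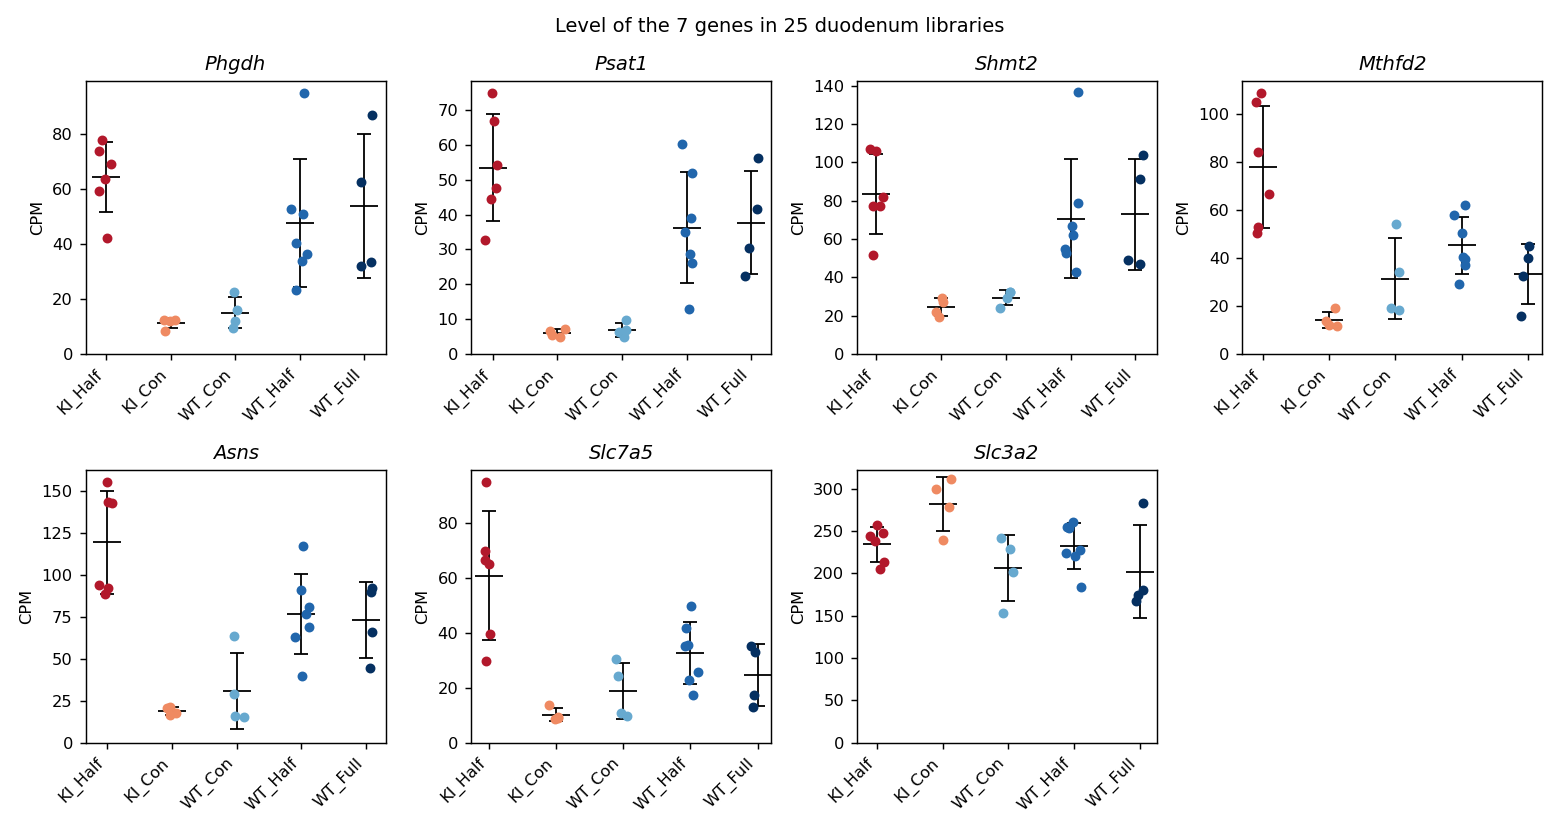
Level of each gene in CPM (vertical axis, from 0) in the 5 groups (horizontal axis); points are libraries, the long bar is the group mean and the whiskers are ± 1 SD. For every gene but Slc3a2 the 6 KI_Half libraries lie above the 4 KI_Con libraries, and the Slc3a2 panel shows overlapping groups between 153 and 312 CPM.

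The serine route comes first. Phgdh encodes 3-phosphoglycerate dehydrogenase, which commits the glycolytic intermediate to serine (ENSMUSG00000053398, GRCm38 chromosome 3, 98313170 to 98339990, minus strand). It had 42.1 CPM at the lowest, a median of 66.5 and 77.9 at the highest in KI_Half, against 11.8, 8.37, 12.4 and 12.2 CPM in KI_Con replicates 1 to 4. The lowest KI_Half library was thus above the highest KI_Con library. This gave a log2 fold change of 2.53 ± 0.19 (SE), with an adjusted p of 8.73e-05 by the quasi-likelihood test of edgeR over all genes.

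In wild type Phgdh had 9.31, 12.05, 22.6 and 16.1 CPM in WT_Con replicates 1 to 4. It ran from 23.2 CPM over a median of 40.3 to 95.04 in WT_Half, and was 87.1, 32.1, 62.8 and 33.6 CPM in WT_Full replicates 1 to 4. No library of WT_Half or WT_Full overlapped WT_Con, though the lowest WT_Half and the highest WT_Con library were close. The log2 fold change of WT_Half over WT_Con was 1.67 ± 0.36 with an edgeR adjusted p of 0.0443, and that of WT_Full over WT_Con was 1.86 ± 0.39 with 0.129, which missed the threshold of 0.05.

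Psat1 encodes phosphoserine aminotransferase, the second enzyme of the route (ENSMUSG00000024640, chromosome 19, 15904678 to 15947337, minus strand), and had the largest fold change of the 7 genes in each ethanol comparison against control diet. It had 32.8 CPM at the lowest, a median of 50.9 and 74.9 at the highest in KI_Half, against 6.61, 4.96, 7.17 and 5.41 CPM in KI_Con. These groups were far apart, with a log2 fold change of 3.15 ± 0.24 and an edgeR adjusted p of 8.73e-05. In wild type it had 4.97, 6.31, 9.61 and 6.76 CPM in WT_Con. WT_Half ran from 12.8 over a median of 35.01 to 60.4 CPM, and WT_Full had 56.3, 22.2, 41.7 and 30.4 CPM. All 11 ethanol-fed wild-type libraries lay above the 4 controls. The log2 fold change was 2.40 ± 0.38 for WT_Half over WT_Con (edgeR adjusted p = 0.0178) and 2.46 ± 0.32 for WT_Full over WT_Con (0.0575).

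Psph, the phosphatase that completes the route, was not among the 7 genes but went with them. Its level was 14.8 ± 4.42 CPM in KI_Half and 3.79 ± 0.849 in KI_Con (SD, n = 6 and 4), a log2 fold change of 1.97 ± 0.26 with an edgeR adjusted p of 0.000551. In wild type it averaged 4.71 ± 1.11 CPM in WT_Con, 9.72 ± 2.88 in WT_Half and 10.2 ± 3.64 in WT_Full (SD, n = 4, 7 and 4), and neither comparison with WT_Con passed with edgeR (adjusted p = 0.0590 and 0.159).

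Next is the mitochondrial one-carbon pair. Shmt2 encodes the mitochondrial serine hydroxymethyltransferase, which splits serine into glycine and a folate-bound carbon (ENSMUSG00000025403, chromosome 10, 127517123 to 127522444, minus strand). It had 51.5 CPM at the lowest, a median of 79.5 and 107 at the highest in KI_Half, against 29.04, 19.2, 27.2 and 21.7 CPM in KI_Con. The 2 groups did not overlap, and the log2 fold change was 1.79 ± 0.21 (edgeR adjusted p = 0.000388). In WT_Con it had 23.8, 32.2, 32.5 and 28.9 CPM, in WT_Half it ran from 42.8 over a median of 62.0 to 137, and in WT_Full it had 104, 47.0, 91.4 and 49.0 CPM. Ethanol-fed and control wild-type libraries were again apart. Its log2 fold change was 1.27 ± 0.28 for WT_Half over WT_Con (edgeR adjusted p = 0.0454) and 1.32 ± 0.28 for WT_Full over WT_Con (0.129).

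Mthfd2 encodes the mitochondrial methylene-tetrahydrofolate dehydrogenase and cyclohydrolase, an enzyme low in most adult tissues and high in proliferating cells (ENSMUSG00000005667, chromosome 6, 83305691 to 83325908, minus strand). It had 50.3 CPM at the lowest, a median of 75.7 and 109 at the highest in KI_Half, against 13.6, 11.9, 19.1 and 11.7 CPM in KI_Con. No KI_Half library came near the controls, and the log2 fold change was 2.48 ± 0.27 (edgeR adjusted p = 0.000290). In wild type the picture was mixed: WT_Con had 18.2, 19.2, 54.3 and 34.1 CPM, WT_Half ran from 29.2 over a median of 40.6 to 62.1, and WT_Full had 44.9, 32.5, 40.2 and 16 CPM. The groups overlapped, since WT_Con replicate 3 lay above 5 of the 7 WT_Half libraries and WT_Full replicate 4 below all 4 WT_Con libraries. Its log2 fold change was 0.54 ± 0.30 for WT_Half over WT_Con (edgeR adjusted p = 0.307) and 0.10 ± 0.41 for WT_Full over WT_Con (0.910). With a covariate for Brunner gland content the value for WT_Full over WT_Con was 0.72, and without WT_Con replicate 3 the values were 0.93 for WT_Half and 0.49 for WT_Full, none of which passed.

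Asns encodes asparagine synthetase (ENSMUSG00000029752, chromosome 6, 7675169 to 7693254, minus strand). It had 88.8 CPM at the lowest, a median of 118 and 155 at the highest in KI_Half, against 20.5, 17.8, 21.1 and 16.2 CPM in KI_Con. The KI_Con values were tight and far below, with a log2 fold change of 2.66 ± 0.20 and an edgeR adjusted p of 8.73e-05. In WT_Con it had 14.9, 15.6, 63.7 and 28.7 CPM, in WT_Half it ran from 39.3 over a median of 76.6 to 117, and in WT_Full it had 91.9, 44.3, 89.7 and 66.0 CPM. WT_Con replicate 3 reached into the range of both ethanol groups. The log2 fold change of WT_Half over WT_Con was 1.33 ± 0.40 (edgeR adjusted p = 0.0980), or 1.96 with an adjusted p of 0.0343 without that library. For WT_Full over WT_Con it was 1.26 ± 0.47 (0.227), or 1.89 (0.133) without it. This WT_Con library also had the highest summed level of Brunner gland markers of the 25 libraries, 54888 CPM. The part of gland content in its Asns level was not tested. With a covariate for Brunner gland content the log2 fold change of Asns was 1.71 for WT_Half over WT_Con and 2.00 for WT_Full over WT_Con, and neither passed with edgeR (adjusted p = 0.242 and 0.255).

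The Asns start site carries a known regulatory element, and its letters are shown because ATF4 binds them in the human gene. The motif TGATGNAA, the core of the composite site of ATF4 and C/EBP proteins, was searched on both strands of 300-base windows around gene starts (RefSeq, GRCm38.p6). A match was found in 3.97% of 32851 windows. Of the 7 genes 6 had a window, all but Slc7a5, and 1 of these 6, Asns, held a match. Of the 8 genes whose pattern was most like that of the list, described further on, 5 had a window and 2 held a match, Gars and Yars, which encode the glycyl- and tyrosyl-tRNA synthetases. The 30 bases around each match are given 5′ to 3′ on the strand of the gene, with the match in capitals. They lie at chr6:7693214-7693243 (minus strand), chr6:55037960-55037989 (plus strand) and chr4:129189895-129189924 (plus strand), and in Gars the motif runs on the opposite strand.
Asns: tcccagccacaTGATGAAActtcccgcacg
Gars: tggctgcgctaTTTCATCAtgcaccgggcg
Yars: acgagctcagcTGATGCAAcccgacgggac
The Asns match began 23 bases before the start site of its window, and it lay within an annotated Asns exon of GENCODE M21. A match is a run of letters and no measure of binding, and its absence from the other windows says only that these letters were not there.

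Psat1, the gene with the largest fold change, and Mthfd2 had no TGATGNAA in their windows but held CCAAT, the box bound by NF-Y. CCAAT was found in 37.4% of the windows and in those of 3 of the 6 genes (Phgdh, Psat1 and Mthfd2). The part of each window before its first base in an annotated exon is given, with CCAAT or its reverse complement ATTGG in capitals. It comes from chr19:15925060-15925309 for Psat1 (minus strand, 1 of 2 listed starts) and from chr6:83317607-83317854 for Mthfd2 (minus strand). Both parts lie inside the annotated span of the gene given above, so they are not upstream of all its annotated exons.
Psat1: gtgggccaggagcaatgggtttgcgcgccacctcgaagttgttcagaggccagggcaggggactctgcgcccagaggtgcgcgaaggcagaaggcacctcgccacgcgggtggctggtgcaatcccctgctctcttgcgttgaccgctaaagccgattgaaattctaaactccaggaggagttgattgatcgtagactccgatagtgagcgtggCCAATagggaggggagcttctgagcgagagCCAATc
Mthfd2: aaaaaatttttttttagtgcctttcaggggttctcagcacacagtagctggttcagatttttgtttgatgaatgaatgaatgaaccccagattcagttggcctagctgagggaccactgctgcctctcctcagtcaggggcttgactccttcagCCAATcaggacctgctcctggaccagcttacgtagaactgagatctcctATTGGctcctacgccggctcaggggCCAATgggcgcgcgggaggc
In both genes a CCAAT or ATTGG stood within the last 50 bases before the start site, at 36 and 6 bases before it in Psat1 and at 47 and 22 bases before it in Mthfd2.

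The exchanger has a light and a heavy chain. Slc7a5 encodes the light chain LAT1, which carries the amino acids (ENSMUSG00000040010, chromosome 8, 121881150 to 121907694, minus strand). It had 29.7 CPM at the lowest, a median of 65.8 and 95.2 at the highest in KI_Half, against 9.08, 9.16, 13.7 and 8.73 CPM in KI_Con. The groups were apart, with a log2 fold change of 2.59 ± 0.31 (edgeR adjusted p = 0.000416). In WT_Con it had 10.9, 9.72, 30.5 and 24.4 CPM, in WT_Half it ran from 17.5 over a median of 35.1 to 49.8, and in WT_Full it had 35.3, 17.4, 33.0 and 12.9 CPM. WT_Con replicates 3 and 4 lay within the range of the ethanol-fed libraries. Its log2 fold change was 0.80 ± 0.35 for WT_Half over WT_Con (edgeR adjusted p = 0.215) and 0.40 ± 0.45 for WT_Full over WT_Con (0.651). In WT_Full over WT_Con it was 1.16 with the gland covariate, which did not pass. Without the WT_Con libraries with Ctrb1 above 10 CPM it was 1.74 for WT_Half and 1.36 for WT_Full. Only 1 WT_Con library remains there, so these values rest on that library.

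Slc3a2 encodes the heavy chain CD98, the shared glycoprotein partner of several light chains (ENSMUSG00000010095, chromosome 19, 8706882 to 8723369, minus strand). It had 205 CPM at the lowest, a median of 241 and 258 at the highest in KI_Half, against 312, 300, 239 and 278 CPM in KI_Con. The groups overlapped, and the log2 fold change was -0.26 ± 0.10 with a 95% interval of -0.48 to -0.04 and an edgeR adjusted p of 0.0638. In WT_Con it had 242, 229, 153 and 201 CPM, in WT_Half it ran from 184 over a median of 228 to 261, and in WT_Full it had 181, 175, 168 and 284 CPM. The log2 fold change of WT_Half over WT_Con was 0.18 ± 0.14, with a 95% interval of -0.13 to 0.48, and that of WT_Full over WT_Con was -0.03 ± 0.22, with an interval of -0.51 to 0.46 (edgeR adjusted p = 0.482 and 0.953).

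Per kilobase of exon, the level of Slc7a5 over that of Slc3a2 was 0.114 to 0.371 in KI_Half and 0.0277 to 0.0543 in KI_Con. In wild type this ratio of levels was 0.0405 to 0.190 in WT_Con, 0.0743 to 0.257 in WT_Half and 0.0433 to 0.187 in WT_Full. The ratio did not overlap between the Aldh2KI groups, while the wild-type ranges overlapped.

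Levels of different genes are compared per kilobase of exon. In KI_Half Slc3a2 had 66.5 ± 5.86 CPM per kilobase and Asns 43.6 ± 11.2 (SD, n = 6). Shmt2, Phgdh and Mthfd2 followed at 26.8 ± 6.68, 25.9 ± 5.13 and 22.4 ± 7.32 CPM per kilobase, and Slc7a5 and Psat1 at 16.4 ± 6.31 and 12.6 ± 3.61. Among Shmt2, Phgdh and Mthfd2, and between Slc7a5 and Psat1, the means lay closer than the larger SD. In KI_Con Slc3a2 had 80.0 ± 9.04 CPM per kilobase, and every other gene of the list was under 10. Shmt2 at 7.81 ± 1.48 and Asns at 6.91 ± 0.833 CPM per kilobase lay closer than the larger SD there (SD, n = 4), as did Phgdh and Mthfd2, and Phgdh and Mthfd2 had 4.51 ± 0.770 and 4.04 ± 1.00, Slc7a5 2.74 ± 0.632 and Psat1 1.42 ± 0.242. In WT_Con the order behind Slc3a2, at 58.5 ± 11.1 CPM per kilobase, was Asns, Shmt2, Mthfd2, Phgdh, Slc7a5 and Psat1, from 11.2 ± 8.37 down to 1.62 ± 0.458 (SD, n = 4). Asns came first there through WT_Con replicate 3, at 23.3 CPM per kilobase against 5.45 to 10.5 in the other 3 libraries, and the means of Asns, Shmt2 and Mthfd2 lay closer than the larger SD.

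Set against all genes, the 6 calls in KI_Half vs KI_Con stood beside a background in which 20% of 16944 genes tested were called higher. All 6 had no overlap between the groups, as had 13.5% of all genes tested in that direction. In WT_Half vs WT_Con 3 of the 7 were called higher, against 0.894% of 16993 genes, and the same 3, Phgdh, Psat1 and Shmt2, had no overlap, against 3.1% of genes. The median log2 fold change of the 7 genes was 2.53 in KI_Half vs KI_Con and 1.27 in WT_Half vs WT_Con, beside a median of 0.00 over all genes in both. All 7 genes passed the filter on low counts in every comparison.

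The 6 calls in KI_Half vs KI_Con held in every setting run, with any 1 library left out, with a covariate for Brunner gland content, and without the KI_Con libraries whose level of the acinar gene Ctrb1 was above 10 CPM, where 2 of the 4 remain. In that last fit the log2 fold changes of the 6 genes were 1.77 to 3.08. Over all genes, 20% were called higher and 17.9% lower in KI_Half than in KI_Con. Of 12 markers of proliferating crypt cells 8 were called higher and 1 lower. Called lower were 7 of 12 enterocyte markers, all 14 acinar markers and 11 of 12 of T and NK cells. The part of these markers in the values of the 7 genes was not tested. The 3 calls in WT_Half vs WT_Con were less stable, with 0 left with the gland covariate, without the WT_Con libraries above that Ctrb1 level (1 remains), or without WT_Con replicate 1 or 4, and 1 left without WT_Con replicate 2 or WT_Half replicate 4, 5 or 7. Without WT_Con replicate 3 there were 3, with Asns in place of Shmt2. The fold changes themselves stayed of like size: with the gland covariate the log2 values were 1.74 for Phgdh, 2.42 for Psat1 and 1.18 for Shmt2, and without the WT_Con libraries above that Ctrb1 level 1.97, 2.52 and 1.12. DESeq2 called these 3 genes and Asns (adjusted p = 0.0117), and its share of all genes called is not reported here.

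**Figure D2:**
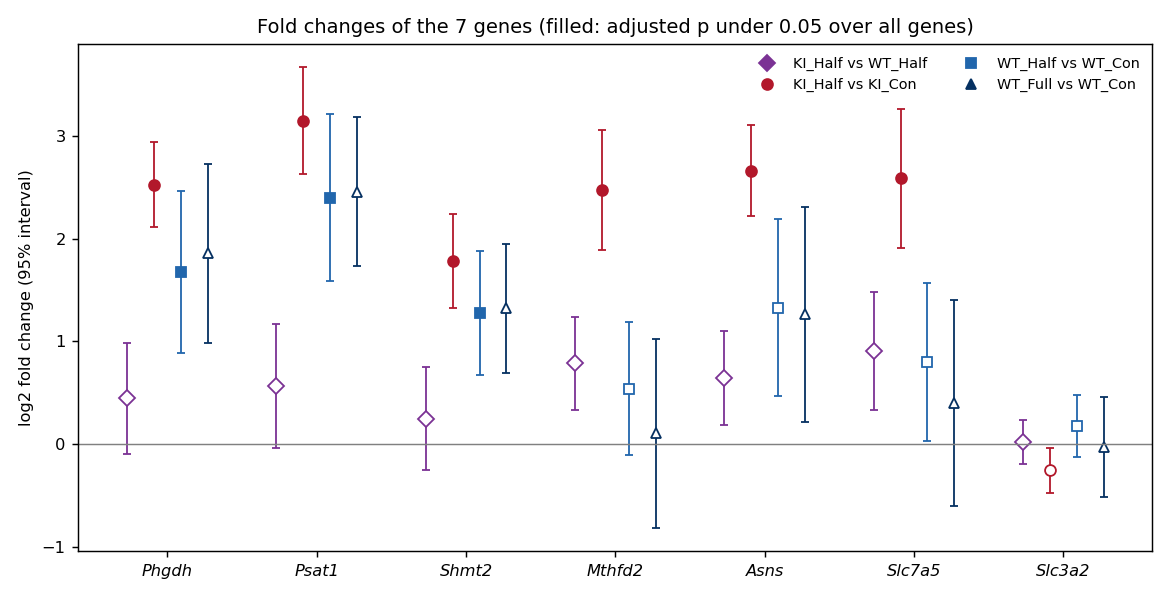
Log2 fold change of each gene (vertical axis) in 4 comparisons, with 95% intervals as whiskers; filled symbols passed an adjusted p under 0.05 over all genes. KI_Half vs KI_Con is filled for 6 genes and WT_Half vs WT_Con for Phgdh, Psat1 and Shmt2, while Slc3a2 lies between -0.26 and 0.18 in all 4. KI_Half vs WT_Half and KI_Half vs KI_Con share the KI_Half libraries, and the 2 wild-type comparisons share WT_Con.

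With the stronger regimen, WT_Full vs WT_Con, edgeR called 0 of the 7 genes, where 0.00592% of 16882 genes (1 gene) were called higher. At an unadjusted p under 0.05 there were 4, Phgdh, Psat1, Shmt2 and Asns, beside 17.8% of all genes. Phgdh, Psat1 and Shmt2 had no overlap between WT_Full and WT_Con, as had 4.22% of genes in that direction. DESeq2 on the same libraries called these 3, and 1 edgeR fit of all 25 libraries called them and Asns. Without WT_Full replicate 4 edgeR called the 3 as well, with adjusted p of 0.00680 to 0.0170. In the authors' deposited table of this comparison 4 genes had an adjusted p under 0.05: Psat1 with a log2 fold change of 2.44 (1.34e-08), Phgdh with 1.84 (4.46e-05), Shmt2 with 1.30 (0.00123) and Asns with 1.24 (0.0114). The shares of all genes called in these other fits and in the authors' table are not reported here. The 0.00592% holds for the first edgeR fit only, so it is no background for those calls.

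Between the 2 wild-type ethanol regimens no difference was found. In WT_Full vs WT_Half edgeR called 0 of the 7 genes (0% of 16967 genes), 0 had an unadjusted p under 0.05, against 4.6% of all genes, and DESeq2 called 0. The log2 differences ran from -0.42 for Mthfd2, with a 95% interval of -1.01 to 0.17, to 0.20 for Phgdh, with an interval of -0.58 to 0.98. Differences of up to about 2 times in either direction are within several of these intervals, so the 2 regimens are not shown to act alike.

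Under the shared ethanol regimen the genotypes were set side by side as KI_Half vs WT_Half. All 7 genes had a positive log2 difference, Slc3a2 only at 0.01, beside a median of -0.02 over all genes. However, edgeR called 0 of the 7, as it did 0% of 16907 genes. At an unadjusted p under 0.05 there were 3, Mthfd2, Asns and Slc7a5, beside 14.2% of all genes. Slc7a5 had a mean of 61.0 ± 23.4 CPM in KI_Half and 32.6 ± 11.4 in WT_Half (SD, n = 6 and 7), a log2 difference of 0.91 ± 0.27 with an edgeR adjusted p of 0.266. Mthfd2 had 78.1 ± 25.5 CPM in KI_Half and 45.3 ± 11.9 in WT_Half, with 0.79 ± 0.21 and the same adjusted p, and Asns 119 ± 30.7 CPM in KI_Half and 76.6 ± 24.1 in WT_Half, with 0.64 ± 0.21 (0.278). KI_Half replicates 1, 2 and 3 had the 3 highest values of Asns and Mthfd2 of all 25 libraries, while replicates 5, 6 and 7 lay within the WT_Half range of Asns. DESeq2 called Mthfd2 (log2 difference 0.79, adjusted p = 0.0491) and the authors' deposited table did not call it (0.79, 0.112). Shares of all genes called by DESeq2 or in the authors' table are not reported here. Macrophage and neutrophil markers, all 8 measured, summed to 92.8 to 596 CPM in KI_Half and 89.0 to 122 in WT_Half, with S100a8 or S100a9 at 0 in some libraries of other groups. Of these markers 4 were higher and 4 lower by sign. On average Ly6g gave most of the sum in KI_Half, at 193 ± 162 CPM, but not in WT_Half, at 34.1 ± 23.6 (SD, n = 6 and 7). All 11 tested T and NK cell markers and 11 of 12 enterocyte markers had a negative log2 difference, and edgeR called 0 markers of these lists. Their part in the differences of the 7 genes was not tested.

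On control diet, KI_Con vs WT_Con, edgeR also called 0 of the 7 genes (0% of 16813 genes, DESeq2 0), and 3 had an unadjusted p under 0.05, beside 9.9% of all genes. These were Mthfd2, with 14.1 ± 3.49 CPM in KI_Con and 31.4 ± 16.9 in WT_Con (SD, n = 4 each), Slc7a5 and Slc3a2. The log2 difference of Mthfd2 was -1.17 ± 0.35, that of Slc7a5 -0.91 ± 0.37 and that of Slc3a2 0.44 ± 0.15, each with an edgeR adjusted p of 0.502. Without WT_Con replicate 3 the difference of Mthfd2 was -0.76, that of Slc7a5 -0.57 and that of Asns -0.07, against -0.71 with it.

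Whether the 2.5% ethanol regimen moved the genes differently in the 2 genotypes was tested as an interaction over the 4 groups. edgeR called 0 of the 7 genes and 0% of 17006 genes. At an unadjusted p under 0.05 there were 4, beside 12.7% of all genes. Mthfd2 had the 5th smallest p of all genes, with an interaction of 1.95 ± 0.41 on the log2 scale (edgeR adjusted p = 0.327), followed by Slc7a5 with 1.80 ± 0.48 (0.327), Asns with 1.35 ± 0.46 (0.334) and Slc3a2 with -0.43 ± 0.17 (0.342). Phgdh, Psat1 and Shmt2 had 0.86 ± 0.42, 0.76 ± 0.44 and 0.52 ± 0.36. Of the 7 genes DESeq2 called Mthfd2 (1.95, adjusted p = 0.0102), and the share of all genes that DESeq2 called is not reported here. Without WT_Con replicate 3 the interaction was 1.55 for Mthfd2, 1.47 for Slc7a5 and 0.71 for Asns. Without the control libraries whose Ctrb1 level was above 10 CPM it was 1.10 for Mthfd2, 0.70 for Slc7a5 and 0.38 for Asns. Only 1 WT_Con library and 2 KI_Con libraries remain in that fit.

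The 7 genes were next placed beside longer lists of the same routes, chosen with earlier results of these data known. Among 30 other genes of serine, glycine and one-carbon metabolism, 10 were called higher and 5 lower in KI_Half than in KI_Con, beside 20% and 17.9% of all genes, with a median log2 fold change of 0.16. Mthfd1l, which releases formate from mitochondria, had 41.9 ± 12.5 CPM in KI_Half and 9.21 ± 2.01 in KI_Con, a log2 fold change of 2.19 ± 0.26 (edgeR adjusted p = 0.000416). The cytosolic counterparts rose too, Shmt1 by 0.83 ± 0.17 (0.00366) and Mthfd1 by 0.58 ± 0.13 (0.00609) on the log2 scale. The mitochondrial serine carrier Sfxn1 fell by 0.50 ± 0.17 on the log2 scale (edgeR adjusted p = 0.0345). In WT_Half vs WT_Con 0 of these 30 genes were called, where 0.894% of all genes were called higher. Aldh1l2, a mitochondrial formyl-tetrahydrofolate dehydrogenase, was low at 1.41 ± 0.574 CPM in KI_Half and 1.23 ± 1.24 in KI_Con and did not pass (edgeR adjusted p = 0.815).

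Around asparagine, 2 of 13 genes of aspartate, asparagine and glutamine metabolism were called higher and 2 lower in KI_Half vs KI_Con, shares no larger than the 20% and 17.9% of all genes. The glutamine synthetase Glul had 245 ± 91.1 CPM in KI_Half and 86.4 ± 4.63 in KI_Con, and the aspartate-making mitochondrial Got2 162 ± 16.2 in KI_Half and 132 ± 9.06 in KI_Con (SD, n = 6 and 4; edgeR adjusted p = 0.00141 and 0.0249). Lower were the cytosolic transaminase Got1, with a log2 fold change of -0.63 ± 0.12 (0.00301), and Aspa, with -2.12 ± 0.49 (0.00650). Of 8 genes of proline and mitochondrial phosphoenolpyruvate (PEP) metabolism 3 were called higher and 2 lower, beside the same shares of all genes. Prodh, the first enzyme of proline breakdown, rose by 0.88 ± 0.18 on the log2 scale (edgeR adjusted p = 0.00332). Aldh4a1, the next enzyme of that breakdown, fell by 1.83 ± 0.25 (0.000585), and Pycr1, an enzyme of proline synthesis, did not pass (-0.14 ± 0.45, 0.826). In WT_Half vs WT_Con 1 gene of these lists was called, Got2, where 0.894% of all genes were called higher. Got2 had 168 ± 17.2 CPM in WT_Half and 118 ± 17.1 in WT_Con (SD, n = 7 and 4, edgeR adjusted p = 0.0497).

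The other carriers split by kind. All 8 other carriers linked to ATF4 were called higher in KI_Half vs KI_Con, beside 20% of all genes, with a median log2 fold change of 1.32. The cystine carrier Slc7a11 had 8.71 ± 4.76 CPM in KI_Half and 0.444 ± 0.264 in KI_Con, the arginine and lysine carrier Slc7a1 100.7 ± 29.5 in KI_Half and 29.4 ± 3.64 in KI_Con, and the glutamine carrier Slc1a5 194 ± 55.9 in KI_Half and 70.5 ± 19.0 in KI_Con (SD, n = 6 and 4; edgeR adjusted p = 0.000638, 0.000449 and 0.00118). Of 5 other chains of the CD98 family that were measured, of 7 listed, 4 were called lower, beside 17.9% of all genes. They were the light chains Slc7a7, Slc7a8 and Slc7a9 and the heavy chain Slc3a1, with log2 fold changes of -0.74 to -0.35, and these serve the absorbing epithelium. Slc7a6 was called higher (1.09 ± 0.30, adjusted p = 0.0156). In WT_Half vs WT_Con 0 genes of both lists were called, where 0.894% of all genes were called higher.

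Of 21 genes, for cytosolic aminoacyl-tRNA synthetases, which load amino acids onto tRNA, and for the tRNA exporter Xpot, 20 were called higher in KI_Half vs KI_Con, beside 20% of all genes, and 2 in WT_Half vs WT_Con, Rars and Yars, beside 0.894%. Gars had 197 ± 45.1 CPM in KI_Half and 68.2 ± 3.28 in KI_Con (SD, n = 6 and 4), a log2 fold change of 1.54 ± 0.16 (edgeR adjusted p = 0.000283), and Yars and Farsb rose by 1.22 ± 0.14 (0.000374) and 0.84 ± 0.08 (0.000232). Of 19 measured regulators of the ATF4 pathway, 7 were called higher and 1 lower in KI_Half vs KI_Con, beside 20% and 17.9% of all genes. Atf4 itself had 387 ± 81.7 CPM in KI_Half and 210 ± 18.03 in KI_Con, a log2 fold change of 0.89 ± 0.16 (0.00181), although its control is known to act mainly on translation. Atf5, a related factor, rose by 2.61 ± 0.28 (0.000286), the glutathione-degrading Chac1 by 4.32 ± 0.74 (0.00158) and the mTORC1 inhibitor Ddit4 by 2.21 ± 0.25 (0.000366) on the log2 scale. Ddit3, which encodes CHOP, and Trib3 did not pass (-0.36 ± 0.19 and 0.23 ± 0.27; adjusted p = 0.161 and 0.536). In wild type Atf5 was the 1 regulator called in both WT_Half vs WT_Con and WT_Full vs WT_Con. In KI_Half vs WT_Half edgeR called 0 genes of any of these lists. All 8 other ATF4-linked carriers, 20 of the 21 synthetase genes and 16 of the 19 regulators had a positive log2 difference there. The median over all genes was -0.02, and the share of all genes with a positive difference is not reported here. Slc7a11 averaged 8.71 ± 4.76 CPM in KI_Half and 2.17 ± 1.42 in WT_Half, and Atf4 387 ± 81.7 in KI_Half and 261 ± 25.03 in WT_Half (SD, n = 6 and 7; edgeR adjusted p = 0.265 for both).

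**Figure D3:**
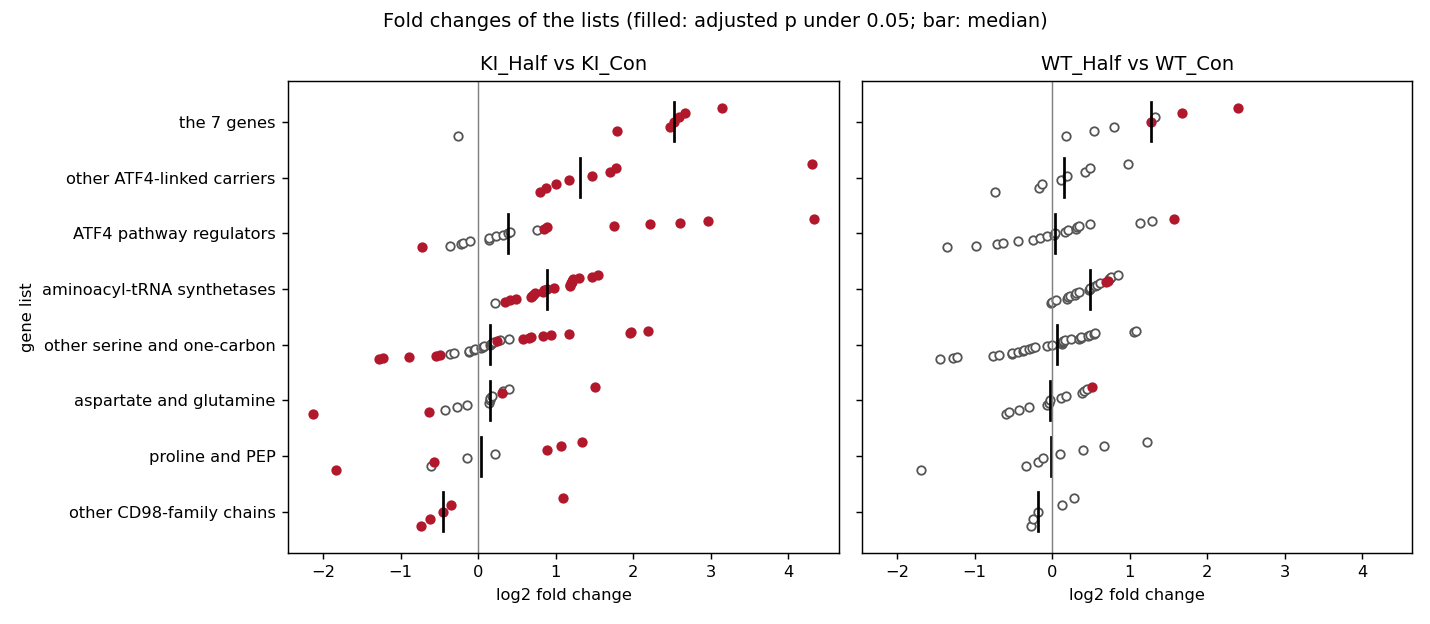
Log2 fold change (horizontal axis) of every tested gene of 8 lists (vertical axis) in KI_Half vs KI_Con (left) and WT_Half vs WT_Con (right); filled points passed an adjusted p under 0.05 over all genes, and bars are list medians. The 7 genes have medians of 2.53 (left) and 1.27 (right), and the lists of aspartate, proline and CD98-family genes have medians between -0.45 and 0.15.

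Within groups, after each group's mean was taken away, the 6 genes that moved in Aldh2KI mice varied together in the 25 libraries, with Pearson r from 0.55 (Shmt2 with Slc7a5) to 0.91 (Phgdh with Psat1). Phgdh, Psat1 and Shmt2 were the closest trio (0.89 to 0.91), and Mthfd2 was closest to Slc7a5 (0.84). Slc3a2 ran against all 6, with r from -0.62 to -0.27. These r share libraries and depth and are given as a description. WT_Half replicate 1 had the highest Phgdh and Shmt2 of all 25 libraries, 95.04 and 137 CPM. It also had the highest summed level of proliferating crypt cell markers, 1645 CPM, whose part in the values was not tested.

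Among 14952 other genes with a mean of at least 1 CPM, the 8 whose log2 CPM was most like the mean standardised log2 CPM of the 7 genes were Yars, Gars, Lars, Sars, Atf5, Eif4ebp1, Psph and Cars. Their Pearson r over the 25 libraries, differences between groups included, ran from 0.93 to 0.97, and within groups from 0.72 to 0.93. Yars, Gars, Lars, Sars and Cars encode aminoacyl-tRNA synthetases, Atf5 a factor related to ATF4, Psph is the last enzyme of serine synthesis, and Eif4ebp1 encodes a repressor of cap-dependent translation. Eif4ebp1 had mean levels of 128 CPM in KI_Half and 21.5 in KI_Con, and 25.4 in WT_Con, 65.3 in WT_Half and 62.6 in WT_Full.

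**Figure D4:**
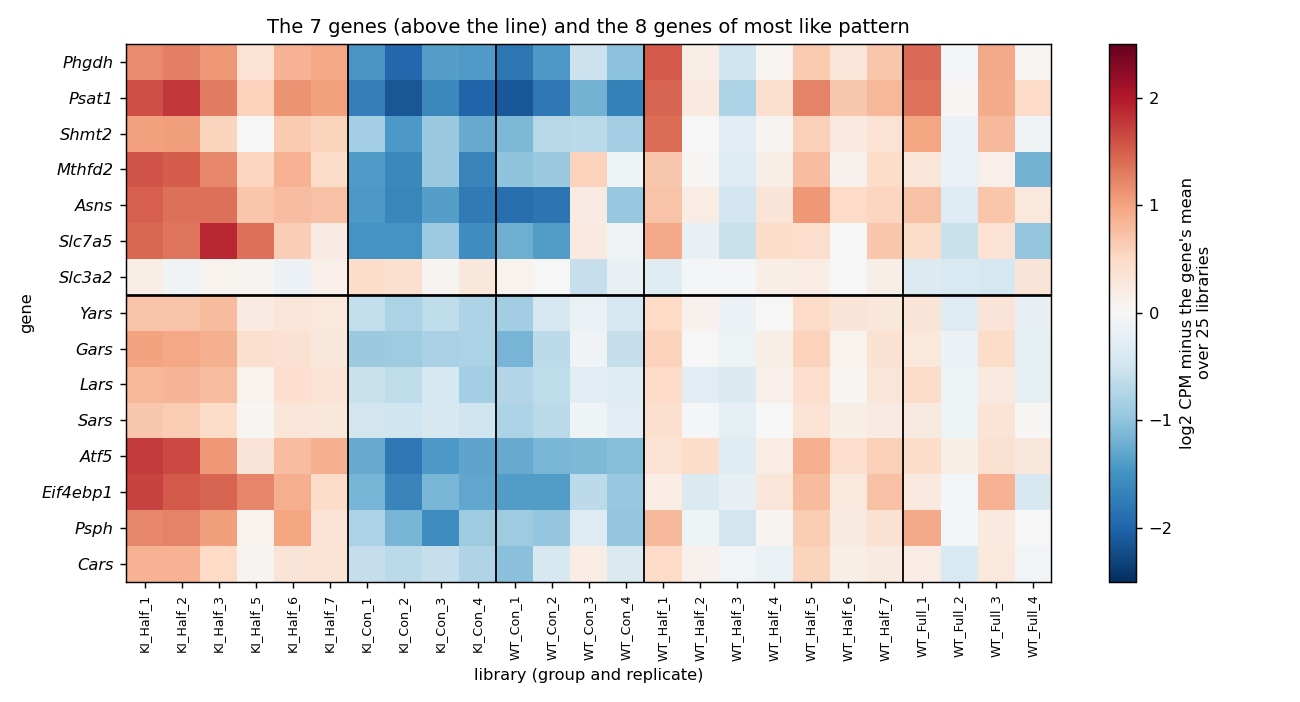
Log2 CPM minus the gene's mean over the 25 libraries (colour) for the 7 genes, above the line, and the 8 genes of most like pattern, below it; columns are libraries by group, divided by vertical lines. In every row but that of Slc3a2, KI_Half columns are red and KI_Con columns blue. In KI_Half replicate 5, though, Shmt2, Sars, Cars, Psph and Lars lie near the gene's mean. WT_Con replicate 3 is red for Mthfd2, Asns and Slc7a5 (54.3, 63.7 and 30.5 CPM) and blue for Phgdh, Psat1 and Shmt2.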

How the data were processed

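Per the submitters' processing notes, reads were handled with FastQC, Trimmomatic, HISAT2, SAMtools, featureCounts and DESeq2 on GRCm38, with no versions. The sources used here do not give the annotation, the strand setting or how shared reads were counted. The deposited counts by gene were taken as raw from their values, whole numbers with unequal totals. The deposited log2 fold changes and p-values adjusted for multiple testing are the authors' own, under DESeq2 column names per the file headers, for WT_Full vs WT_Con and KI_Half vs WT_Half. Both tables held the same counts, and 213 repeated identifiers were merged to leave 17007.

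In R 4.3.3, edgeR 4.0.16 was run for 6 comparisons, each on its 2 groups only (TMM, default filter on low counts, quasi-likelihood F test, two-sided, Benjamini-Hochberg over all genes, threshold 0.05), and the interaction on 4 groups. The SE is the log2 fold change divided by the root of F. Positions and exon lengths come from GENCODE M21. Steps were tested on simulated counts. Alternatives were DESeq2 1.42.0, other scaling, no filter, all 25 libraries, a replicate block, a gland covariate (Muc6, Tff2 and Gkn3), and libraries left out. Named genes were the 7, 8 near genes of the routes, the 3 with the smallest p per list in the KI_Half comparisons, in part, and the 8 most alike; other genes, such as Got2, Ddit3, Trib3, Slc3a1 and Slc7a6, were chosen after their values were seen, and some genes the rule names are not reported here. The genes and lists were chosen with earlier results of these data known.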

Additional observations from a re-analysis of the deposited data

Results flagged for a closer look

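Of 35 sets of values, 7 genes in 5 groups of 4 to 7 libraries, 5 held a library that stood apart from the rest of its group. Chance gives about 1 in 20 for independent sets of normally spread values. These sets share libraries, and Phgdh and Shmt2 varied together within groups (Pearson r 0.91), so 5 of 35 cannot be set against that rate. Phgdh had 8.37 CPM in KI_Con replicate 2, against 11.8 to 12.4 in the other 3, and Slc7a5 had 13.7 CPM in KI_Con replicate 3, against 8.73 to 9.16. In WT_Half replicate 1 Phgdh had 95.04 CPM, against 23.2 to 52.9 in the other 6, and Shmt2 had 137 CPM, against 42.8 to 78.9. Slc3a2 had 284 CPM in WT_Full replicate 4, against 168 to 181 in the other 3. No explanation for these values was tested.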

How the results depend on the processing

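The number of the 7 genes called was 0 in KI_Half vs WT_Half and 1 with DESeq2; 3 in WT_Half vs WT_Con, 4 with DESeq2 or in 1 fit of all 25 libraries (Asns added), and 0 with the Brunner gland covariate or without control libraries that had Ctrb1 above 10 CPM (1 WT_Con library remains), where log2 values were 1.74 and 1.97 for Phgdh, 2.42 and 2.52 for Psat1, and 1.18 and 1.12 for Shmt2; 0 in WT_Full vs WT_Con, 3 with DESeq2 and 4 in 1 fit of all 25 libraries; and 0 in the interaction and 1 with DESeq2. The cause was not tested. Shares of all genes called with DESeq2, in the other fits and with libraries left out are not reported here. With each library left out in turn the number ran from 0 to 3 in WT_Half vs WT_Con and in WT_Full vs WT_Con, and from 6 to 7 in KI_Half vs KI_Con, where Slc3a2 was called lower with DESeq2 (-0.26, adjusted p = 0.0492) and by edgeR without KI_Con replicate 3 (-0.32, 0.0393).

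Same-numbered libraries of 2 groups correlated from -0.31 to 0.39. Libraries of different numbers were not compared, so these values cannot tell whether replicate numbers pair the libraries. With the replicate block the number called in WT_Half vs WT_Con was 0, with log2 values of 1.49 for Phgdh, 2.04 for Psat1 and 1.12 for Shmt2, in KI_Half vs KI_Con 6, and Asns in WT_Full vs WT_Half had 0.17.

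Signs turned only for values that passed in no setting run. Without control libraries that had Ctrb1 above 10 CPM, KI_Con vs WT_Con gave 0.046 for Phgdh, 0.0093 for Psat1, 0.27 for Asns and 0.22 for Slc7a5. That fit compares 2 KI_Con libraries with 1 WT_Con library. With a library left out, Slc3a2 ran from -0.039 to 0.057 in KI_Half vs WT_Half and from -0.22 to 0.071 in WT_Full vs WT_Con, and Mthfd2 from -0.10 to 0.49 there. In WT_Full vs WT_Half Phgdh ran from -0.15 to 0.44, Psat1 from -0.21 to 0.23, Shmt2 from -0.18 to 0.28 and Asns from -0.20 to 0.10. Other scaling and no filter changed no call of the 7 genes.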
